A study of Mus musculus with 21 samples.

Results

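SLC16A1 clone 1 was compared with the chr8A line in SL2i medium, with 2 libraries of each line, 4 of the 21 libraries of the series. The members of the comparison are the 17178 genes, among the 40838 of the deposited count table, with enough reads over all 15 libraries of that table. Some of them, such as Slc16a7 and Fgf21, had no reads in the 4 libraries compared. Such genes could not be called but stay in the numbers of genes tested. The series holds poly(A) RNA sequencing of mouse embryonic stem cells (ESCs), the pluripotent cells of the early embryo kept in culture. SL, from usage in the field, was taken for serum medium containing LIF (leukemia inhibitory factor), and SL2i for that medium plus inhibitors of MEK and GSK3B. All groups used here were grown for 48 h with 0.2 mM sodium pyruvate and 10% dialyzed serum. They are chr8A and clone 1 in SL2i (2 libraries each), clone 2 in SL2i (2 libraries), and chr8A and clone 1 in SL (3 libraries each). chr8A was read as the control line from usage in the field. The labels do not describe the alteration that the clones carry. Each clone is a single line and chr8A is the only control line, so a difference that came from SLC16A1 and one that came from a single line's history cannot be told apart.

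Slc16a1 encodes MCT1, a proton-coupled transporter that carries pyruvate, lactate and ketone bodies across the plasma membrane. In ESCs the kinase ERK, activated by MEK downstream of FGF receptors, pushes cells out of the naive state that resembles the preimplantation epiblast. MEK inhibition silences ERK target genes, and GSK3 inhibition stabilizes beta-catenin, so that cells in 2i express naive factors strongly and carry little DNA methylation.

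Total counts of the SL2i libraries were 9784408 to 10908368, against 16647156 to 25045069 for the chr8A and clone 1 libraries in SL. All 10 ESC markers had reads in every SL2i library, with a summed level of 5590 to 5612 CPM (TMM-normalized counts scaled by library size) in chr8A and 6209 to 6273 in clone 1. Markers of other cell types were low in both lines. The summed level of 6 fibroblast or feeder markers was 3.85 to 6.28 CPM in chr8A and 4.10 to 4.75 in clone 1, with 1 marker at 0 in all 4 libraries. The corresponding sums were 20.4 to 22.5 and 38.2 to 39.8 CPM for 5 trophoblast markers, 5.41 to 6.02 and 8.39 to 10.2 for 6 primitive endoderm markers, and 6.38 to 7.504 and 12.7 to 13.95 for 4 neural markers, 1 of them at 0. Where these sums move with a gene group below, their part in the result was not tested. On the first principal component of the 6 SL2i libraries (38.3% of the variance) both chr8A libraries lay apart from the 4 libraries of the clones. On the second (16.7%) clone 1 replicate 1 lay apart, at -39.2 against 1.63 for clone 1 replicate 2 and -2.46 to 20.2 for the others.

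Clone 1 differed from chr8A at many genes, mostly by small amounts. Of 17178 genes, 3853 passed an adjusted p of 0.05 in edgeR's quasi-likelihood test, 22.4% of those tested, of which 1780 were higher in clone 1 (10.4%) and 2073 lower (12.1%). Without clone 1 replicate 1, the library that stood apart, 2881 genes passed. Changes of 2-fold or more were found in 270 genes that rose and 291 that fell, and the median size among called genes was 0.34 on the log2 scale. The median change over all genes was 0.00 (log2), with a median standard error (SE) of 0.14. Among genes with a mean of at least 3 on the log2 CPM scale, the largest rises were those of the growth factor gene Igf2, the ERK feedback inhibitor gene Spry4 and the X-linked homeobox gene Rhox5. The largest falls were those of Rasgrp1, which encodes an activator of Ras, and the imprinted zinc finger gene Peg3.

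**Figure D1:**
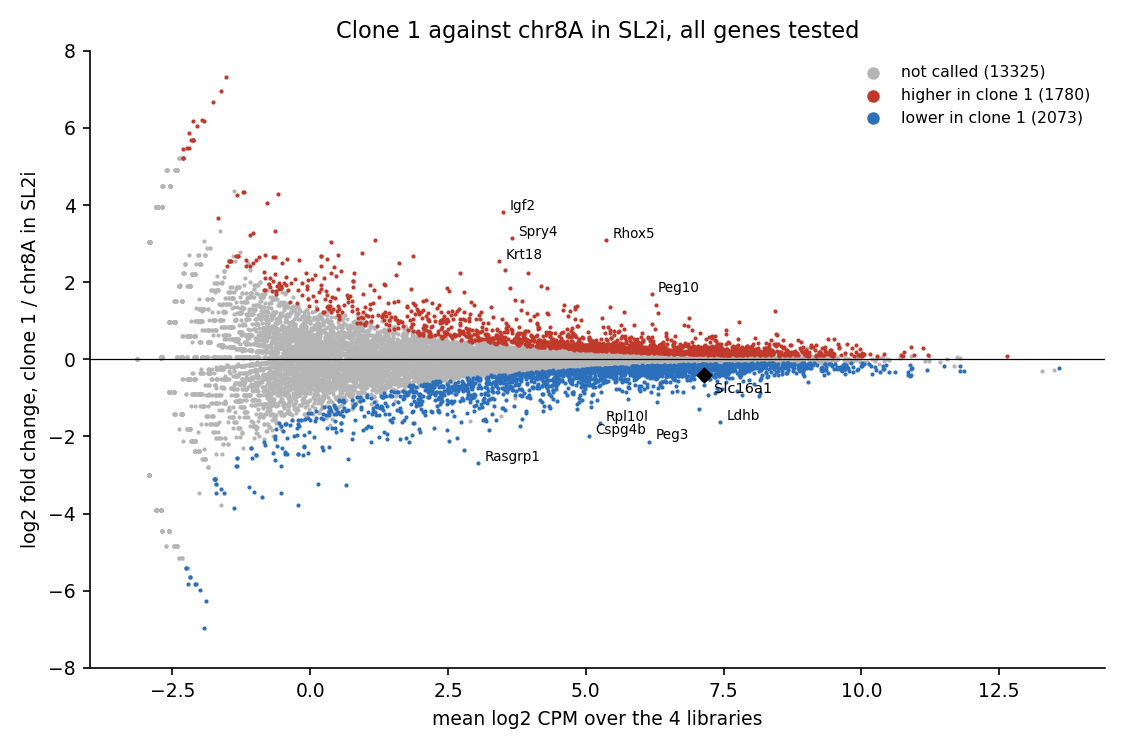
Change of every gene tested (vertical axis, log2 fold change of clone 1 over chr8A in SL2i) against its mean level (horizontal axis, log2 CPM over the 4 libraries). Each point is a gene: 1780 genes called higher are red, 2073 called lower are blue, and the diamond marks Slc16a1. Most called genes with high levels lie close to 0.

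Slc16a1 itself remained transcribed and stood lower in clone 1. Its level was 157 and 167 CPM in the chr8A libraries and 122 and 123 in those of clone 1. The libraries did not overlap, which held for 56.7% of all genes tested. The log2 fold change was -0.40 ± 0.050 (SE, n = 2 each; adjusted p = 1.04e-10, edgeR). In SL the levels were 198 ± 2.99 CPM (SD, n = 3) in chr8A and 171 ± 10.4 in clone 1 (n = 3), a smaller fall of 0.21 (log2). The difference between media was -0.18 ± 0.060 (adjusted p = 0.0203, edgeR), and this call ended with 1 library left out: chr8A SL replicate 1 (adjusted p = 0.0531), clone 1 SL replicate 2 (0.166), chr8A SL2i replicate 2 (0.227), or clone 1 SL2i replicate 1 (0.098) or 2 (0.0946). It also ended with DESeq2 (0.0557) and with libraries thinned to equal depth (0.101), at changes of -0.18 and -0.19. These counts measure the mRNA and not the transporter protein.

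Genes of monocarboxylate transport and pyruvate entry changed in both directions, 4 of 28 higher and 6 lower, with a list median of -0.09 (log2). Ldhb, a lactate dehydrogenase subunit, fell most. Its level was 318 and 291 CPM in chr8A and 106 and 93.1 in clone 1, a change of -1.62 ± 0.048 (adjusted p = 1.03e-51, edgeR), although 33.8% of its 30-base sequence words are shared with other genes, which makes its value uncertain. Emb, a chaperone of monocarboxylate transporters, changed by -0.55 (17.6% shared words). The carrier gene Slc16a6 rose from 9.95 and 7.504 CPM to 17.0 and 15.02 (0.87 ± 0.15; 22.5% shared words). Pdk1, a kinase that switches off pyruvate dehydrogenase, rose from 42.2 and 42.1 to 57.4 and 56.5 (0.43 ± 0.065). Pdk3, another such kinase, was called lower at -0.25 (adjusted p = 0.0175, edgeR), and Pdk2 and Pdk4 did not pass. Bsg, the other MCT1 chaperone, stood at 472 and 449 CPM in chr8A and 474 and 442 in clone 1. The mitochondrial pyruvate carrier genes Mpc1 and Mpc2 did not pass.

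ERK output genes were mostly higher in clone 1. Of 18 tested, 10 were higher and 1 was lower, with a median change of 0.51 on the log2 scale against 0.00 for all genes. Spry4, whose product blocks signaling from receptor tyrosine kinases, stood at 3.77 and 4.64 CPM in chr8A and 34.7 and 39.2 in clone 1. Both clone 1 libraries thus lay far above both chr8A libraries, and the change was 3.14 ± 0.13 (adjusted p = 1.3e-40, edgeR). The transcription factor gene Etv4 went from 9.66 and 11.1 to 35.3 and 38.7 CPM (1.84 ± 0.11). Myc, a growth regulator, went from 7.63 and 9.18 to 24.9 and 23.1 (1.51 ± 0.12), and the ERK phosphatase gene Dusp6 from 6.19 and 5.83 to 16.2 and 14.4 (1.34 ± 0.14). Spry2 rose less, from 96.0 and 96.3 to 120 and 122 CPM (0.33 ± 0.051). Phlda1, an early response gene, rose from 3.29 and 2.77 to 10.4 and 10.4 CPM (1.78 ± 0.21; 31.0% shared words).

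These levels stayed well below those in SL, where MEK was not inhibited. In chr8A in SL, Spry4 stood at 138 ± 1.40 CPM (SD, n = 3) and Etv4 at 71.1 ± 2.38 (n = 3). For 13 of the 18 ERK genes the clone 1 level in SL2i lay between the chr8A levels of SL2i and SL, a description of levels that was not tested. The same held for 15 of 20 p53 targets, 13 of 20 glycolysis genes, 9 of 18 naive pluripotency genes and 7 of 25 cholesterol synthesis genes. The share over all genes was not computed. The immediate early genes Fos, Egr1 and Fosl1 did not pass. The member called lower was the early response gene Ier3, at -0.58 ± 0.22 (adjusted p = 0.0499, edgeR). That call ended under 9 of 12 alternatives, and with 1 library left out the change lay between -0.24 (without clone 1 replicate 1) and -1.06 (without clone 1 replicate 2). In SL, 9 ERK genes were higher and 1 lower in clone 1, with a median of 0.08, beside 16.6% of all genes called there, 8.83% higher and 7.77% lower.

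**Figure D2:**
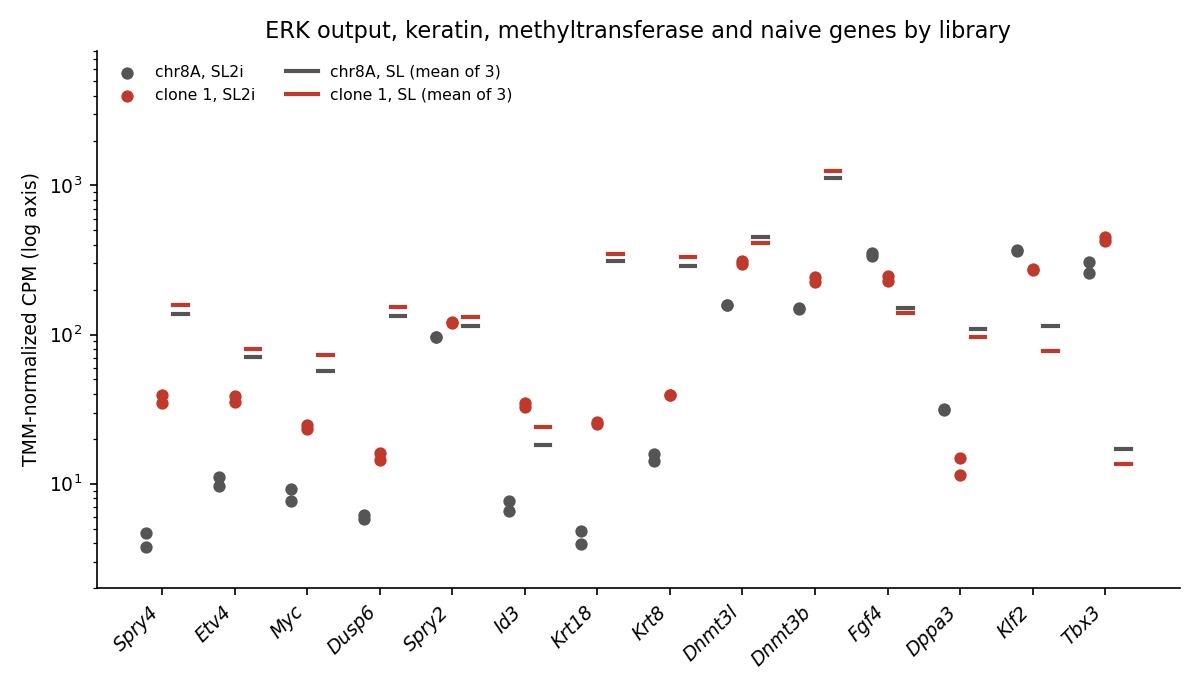
TMM-normalized CPM (log axis) of ERK output genes, Id3, keratins, DNA methyltransferase genes and naive genes. Points are single SL2i libraries, grey for chr8A and red for clone 1, and horizontal marks are means of 3 SL libraries. Spry4 rises from 3.77 and 4.64 to 34.7 and 39.2 CPM in SL2i and still lies under its SL level, whereas Fgf4, Dppa3 and Klf2 are lower in clone 1.

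Naive pluripotency genes split, 7 of 18 higher and 6 lower, with a median of 0.03 (log2). Tbx3, a factor that sustains self-renewal, rose from 260 and 308 to 426 and 452 CPM (0.63 ± 0.047), and Esrrb, an orphan nuclear receptor of the naive network, rose by 0.36. Dppa3, a maternal factor that protects DNA methylation patterns, fell from 31.8 and 31.2 to 14.9 and 11.4 CPM (-1.27 ± 0.11; 30.4% shared words). Fgf4, the ligand that feeds ERK in ESCs, fell from 350 and 337 to 245 and 229 (-0.54 ± 0.040), and the Krüppel-like factor gene Klf2 from 367 and 364 to 272 and 274 (-0.42 ± 0.040). Nanog stood at 1199 and 1159 CPM in chr8A and 1088 and 1080 in clone 1 (-0.12 ± 0.034; 11.1% shared words). That call ended without chr8A replicate 1 (adjusted p = 0.137, edgeR) and without clone 1 replicate 2 (0.0871). The core factor genes Pou5f1 and Sox2 did not pass.

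Formative and primed epiblast genes also moved in part, 5 of 15 higher and 3 lower, median 0.18. Utf1, a chromatin factor of pluripotent cells, rose from 79.1 and 92.2 to 153 and 161 CPM (0.88 ± 0.050), and Lef1, a nuclear partner of beta-catenin, from 6.19 and 4.94 to 8.97 and 10.2 (0.79 ± 0.18; 14.7% shared words). Otx2, a homeobox gene of the formative state, stood at 5.32 and 4.44 CPM in chr8A and 4.43 and 4.88 in clone 1 (-0.07 ± 0.22). Pou3f1 stood at 2.90 and 1.78 and at 3.70 and 3.71 (0.66 ± 0.27; 8.27% shared words; adjusted p = 0.0681, edgeR). Tead2, a partner of the Hippo effector YAP, fell by 0.49 ± 0.049. Among 22 genes of Myc and the G1 phase 4 were higher and 4 lower, and 5 in all were called without chr8A replicate 1 or without clone 1 replicate 1.

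Of the LIF receptor and STAT3 list, 2 of 12 were higher and 4 lower. The shared receptor subunit gene Il6st fell from 134 and 135 to 96.6 and 102 CPM (-0.43 ± 0.054), and the STAT3 target gene Pim1 from 151 and 156 to 118 and 114 (-0.41 ± 0.046; 11.8% shared words). Lifr did not pass, at -0.02 ± 0.078. Of 15 Wnt feedback and target genes, 1 was higher and 2 were lower, a share of 20% called, near the 22.4% of all genes. Axin2, the standard readout of beta-catenin, stood at 122 and 108 CPM in chr8A and 118 and 112 in clone 1. Notum, which inactivates Wnt ligands, changed by -0.42 ± 0.075 (33.2% shared words).

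Of the Nodal and BMP list, 4 of 15 were higher and 4 lower. Id3, an inhibitor of helix-loop-helix factors and a direct BMP target, rose from 6.57 and 7.60 to 32.6 and 34.6 CPM (2.25 ± 0.13; adjusted p = 4.58e-29, edgeR). The ligand gene Bmp4 rose by 1.18, and the inhibitory Smad gene Smad7 from 49.0 and 52.6 to 80.1 and 83.1 CPM (0.68 ± 0.069). Inhbb, an activin subunit gene, rose from 2.32 and 2.17 to 5.28 and 6.53 CPM (1.40 ± 0.25). The BMP targets Id1, Id2 and Smad6 did not pass, and Id4 was called lower at -0.45 ± 0.16, a call that ended without chr8A replicate 1 (adjusted p = 0.33, edgeR), clone 1 replicate 1 (0.0669) or clone 1 replicate 2 (0.23), with DESeq2 (0.0947) and at equal depth (0.151). The genes of 2 Nodal antagonists, themselves Nodal targets, fell: Lefty1 from 25.3 and 24.98 to 7.39 and 7.71 CPM (-1.73 ± 0.12; 26.3% shared words) and Lefty2 from 312 and 315 to 169 and 160 (-0.93 ± 0.045; 18.9% shared words). Nodal itself stood at 114 and 107 CPM in chr8A and 108 and 115 in clone 1.

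Of 15 keratin and trophoblast factor genes, 8 were higher and 2 lower, with a median of 0.93 (log2), and the keratins Krt7, Krt8, Krt18 and Krt19 were all among the 8. Krt7 had only 2 reads in chr8A and 20 in clone 1. Krt7, Krt8 and Krt18 are consecutive tested genes on their chromosome, so their rises may not be separate observations. Krt18, a keratin of simple epithelia, went from 3.96 and 4.84 to 25.3 and 25.9 CPM (2.54 ± 0.16; 12.4% shared words), and its partner Krt8 from 14.1 and 15.8 to 39.6 and 39.5 (1.40 ± 0.093; 36.7% shared words). Krt19 rose by 1.86, from 0.870 and 0.790 CPM to 2.64 and 3.41. The trophoblast factor gene Eomes rose from 7.25 and 10.7 to 16.8 and 15.5 CPM (0.85 ± 0.16). Gata2 and Gata3 rose by 0.99 and 0.94, whereas Tfap2c fell by 0.49 and the surface protein gene Plet1 from 14.7 and 15.8 to 8.23 and 8.10 CPM (-0.90 ± 0.16; 13.7% shared words). Cdx2, at 4.45 and 3.26 CPM in chr8A and 5.70 and 5.27 in clone 1, did not pass, nor did Tead4, Ascl2, Esx1 and Hand1. In bulk RNA, more cells of a type and more RNA per cell cannot be told apart. In SL, Krt18 stood at 313 ± 7.96 CPM in chr8A (SD, n = 3), above its SL2i level in either line. The trophoblast markers summed above all belong to this list, so their higher sum in clone 1 is not a separate observation.

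Other lineage lists moved less. Of 16 primitive endoderm genes 5 were higher and 2 lower. The endocytic adaptor gene Dab2 went from 1.35 and 1.28 to 7.39 and 4.78 CPM (2.19 ± 0.29), and the basement membrane collagen gene Col4a1 from 10.7 and 10.1 to 16.5 and 20.3 (0.83 ± 0.13). Hnf4a, a nuclear receptor of visceral endoderm, was called higher at 1.31 ± 0.44 (0.691 to 2.03 CPM in chr8A, 2.75 to 3.999 in clone 1), a call that ended without chr8A replicate 2 (0.74; adjusted p = 0.382, edgeR), without clone 1 replicate 2 (1.02; 0.278) and at equal depth (0.0746). Without clone 1 replicate 2 that list had 4 members called. Gata6, which specifies that lineage, stood at 0.483 to 0.528 CPM in all 4 libraries. Gata4, also on the list, stood at 2.22 and 2.17 CPM in chr8A and 1.06 and 1.27 in clone 1. Among the primitive endoderm markers summed above, only Dab2 was higher in both clone 1 libraries than in both chr8A libraries. Among 10 neural genes 3 were higher and 1 was lower: Sox1, a marker of neural progenitors, rose from 5.80 and 7.504 to 12.4 and 13.4 CPM (0.95 ± 0.19), the neuronal tubulin gene Tubb3 rose by 0.85 ± 0.088, and the intermediate filament gene Nes fell from 29.1 and 31.6 to 15.6 and 14.0 (-1.03 ± 0.095). Of 11 mesoderm genes Eomes was called, and 2 were called without chr8A replicate 1. Of 14 fibroblast genes none was higher and 2 were lower, the matrix gene Fn1 at -0.17 ± 0.034 among them, and 1 was called without chr8A replicate 2.

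Of 12 genes that write, erase, read or protect DNA methylation, 7 were higher and 1 was lower, with a median of 0.28. Dnmt3l, a cofactor of de novo methylation, went from 158 and 157 to 299 and 314 CPM (0.96 ± 0.041; adjusted p = 2.66e-38, edgeR), and the de novo enzyme gene Dnmt3b from 149 and 151 to 225 and 244 (0.65 ± 0.041; 13.7% shared words). Dnmt3a fell from 58.9 and 54.1 to 42.4 and 46.8 CPM (-0.34 ± 0.066). The 5-methylcytosine oxidase gene Tet2 rose by 0.43 ± 0.043, and Trim28 and Zfp57, which protect imprints, by 0.33 each. The maintenance enzyme gene Dnmt1 stood at 485 and 492 CPM in chr8A and 494 and 513 in clone 1, and neither it nor Uhrf1 and Tdg passed. DNA methylation itself was not measured.

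Germline genes that promoter methylation normally silences were 6 of 17 higher and 1 lower, with a median of 0.57. Rhox5 rose from 14.9 and 13.5 to 126 and 115 CPM (3.08 ± 0.093; adjusted p = 2.98e-43, edgeR). The meiotic chaperone gene Fkbp6 rose from 8.41 and 7.01 to 21.5 and 23.1 (1.53 ± 0.17), and Hormad1, a protein of the meiotic chromosome axis, from 11.2 and 11.6 to 18.7 and 19.4 (0.74 ± 0.15; 37.0% shared words). The RNA-binding factor gene Dazl stood at 13.2 and 12.3 CPM in chr8A and 12.9 and 14.4 in clone 1 and did not pass. The helicase gene Ddx4 had 9.18 and 4.54 CPM in chr8A and 4.96 and 3.51 in clone 1 (-0.71 ± 0.23), so the libraries overlapped. Its call ended without chr8A replicate 1 (-0.10; adjusted p = 0.869, edgeR) and without clone 1 replicate 2 (-0.46; 0.285). The whole list had 4 members called in place of 7 without chr8A replicate 1, and 4 without clone 1 replicate 1.

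Promoters of this list share the E-box word CACGTG, which E2F6 and MGA complexes and other helix-loop-helix factors can read. Searched on both strands in windows of 250 bases before to 50 after the start (RefSeq, GRCm38.p6), CACGTG occurred in 12 of 16 list promoters with an entry, 75%, against 11.2% of 13030 tested genes with a promoter entry, 13.9% of those called higher and 11.4% of those called lower. Holders moved in every direction: 4 were higher, 1 was lower and 7 did not pass. The 120 bases before the start of 2 members that rose and 1 called lower show where the word lies, with CACGTG in capitals, on the strand of the gene.
Fkbp6 (chr5:135350045-135350164): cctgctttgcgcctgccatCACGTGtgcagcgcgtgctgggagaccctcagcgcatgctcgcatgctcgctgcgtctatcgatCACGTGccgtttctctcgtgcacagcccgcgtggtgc
Hormad1 (chr3:95559557-95559676): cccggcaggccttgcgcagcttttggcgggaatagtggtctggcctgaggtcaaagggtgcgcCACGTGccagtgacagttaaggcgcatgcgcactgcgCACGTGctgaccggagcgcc
Ddx4 (chr13:112652311-112652430): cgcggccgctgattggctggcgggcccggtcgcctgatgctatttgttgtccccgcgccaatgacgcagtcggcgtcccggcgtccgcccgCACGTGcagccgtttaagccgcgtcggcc
Fkbp6 and Ddx4 lie on the minus strand and Hormad1 on the plus strand. The word begins 101 and 37 bases before the start in Fkbp6, 57 and 20 in Hormad1 and 29 in Ddx4, so its presence was shared by members that rose and the one that was lower. Rhox5, the member with the largest rise, and Tex101, also called higher, had a promoter entry without the word. The Tex101 call (1.67 ± 0.55) ended without chr8A replicate 1 (adjusted p = 0.186, edgeR), without clone 1 replicate 1 (0.281) and at equal depth (0.074).

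Imprinted genes, which are expressed from 1 parental copy, changed in both directions, 10 of 48 higher and 9 lower, median 0.02. Peg10, a placental gene derived from a retrotransposon, rose from 41.6 and 39.7 to 128 and 135 CPM (1.69 ± 0.054). Igf2 rose from 2.71 and 3.26 to 38.5 and 45.3 (3.81 ± 0.18; adjusted p = 9.79e-16, edgeR), with 63.2% of its words in another gene, and the neighboring noncoding RNA gene H19 rose by 3.09, from 3 and 13 reads to 59 and 74 (5.39% shared words). In SL H19 changed by -1.40 and Igf2 by -0.35. The noncoding RNAs of the Dlk1-Meg3 cluster fell: Rian from 222 and 197 to 81.4 and 89.5 CPM (-1.29 ± 0.051), Meg3 from 120 and 111 to 52.7 and 53.7 (-1.12 ± 0.059; 11.5% shared words) and Mirg by 1.09. Dlk1, a protein-coding gene at the other end of that cluster, did not pass. Dio3, a protein-coding gene of the same imprinted region, changed by -1.09 (mean 8.40 to 3.94 CPM; adjusted p = 0.000922, edgeR).

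Peg3 fell from 145 and 152 to 33.5 and 34.0 CPM (-2.13 ± 0.061; adjusted p = 2.02e-53, edgeR). Usp29, a deubiquitinase gene transcribed away from Peg3, fell with it, from 6.09 and 6.22 to 1.16 and 1.76 CPM (-2.06 ± 0.29; 16.2% shared words). Aurkc, the next tested gene past Usp29, also fell, from a mean of 11.7 to 2.70 CPM (-2.12; adjusted p = 5.44e-09, edgeR). Zfp954 beyond Aurkc and the weakly expressed Zim1 on the other side of Peg3 did not pass. The starts of Peg3 and Usp29 lie 163 bases apart on chromosome 7, so a single stretch holds both of their promoters. It is given on the strand of Peg3, up to the base before the Peg3 start and including 22 bases past the start of Usp29.
Peg3 and Usp29 (chr7:6730420-6730604): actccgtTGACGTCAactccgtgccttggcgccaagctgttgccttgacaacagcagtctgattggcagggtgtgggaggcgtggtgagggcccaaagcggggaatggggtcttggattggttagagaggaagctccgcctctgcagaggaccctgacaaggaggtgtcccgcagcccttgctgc
Capitals mark the cyclic AMP response element word TGACGTC, searched on both strands, whose palindrome TGACGTCA is complete here. TGACGTC occurred in 5.56% of the promoters of tested genes, 6.55% of those called higher and 6.15% of those called lower. In SL Peg3 fell too, from 439 ± 5.597 to 96.8 ± 3.88 CPM (SD, n = 3 each), and the difference between media was 0.05 ± 0.073 (adjusted p = 0.722, edgeR).

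Metabolic lists were lower in part. Of 35 genes of the ATF4 and CHOP stress response, 3 were higher and 13 lower (median -0.01), and of 18 genes of serine synthesis and one-carbon metabolism, 2 were higher and 8 lower, 5 of the latter being in both lists. The first enzymes of serine synthesis fell: Phgdh from 108 and 107 to 65.3 and 65.3 CPM (-0.71 ± 0.057; 56.8% shared words) and Psat1 from 360 and 371 to 268 and 266 (-0.45 ± 0.038; adjusted p = 1.25e-18, edgeR). Pck2, a mitochondrial enzyme that makes phosphoenolpyruvate, fell from 96.4 and 110 to 65.3 and 64.4 (-0.67 ± 0.063), and Aldh1l1, which oxidizes formyl folate, from 40.0 and 41.6 to 24.6 and 21.9 (-0.81 ± 0.11; 11.4% shared words). Atf4 itself stood at 362 and 369 CPM in chr8A and 340 and 351 in clone 1, and Ddit3, which encodes CHOP, at 12.1 and 9.97 and at 11.2 and 11.02 (7.07% shared words). Neither passed. Chac1, Trib3 and Asns, common readouts of ATF4, did not pass.

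The CCAAT-ATF core word TGATGCA occurred in 9 of 29 promoters of the ATF4 list with an entry, 31%, against 2.44% of all tested genes with one. Of these 9 holders, 2 were lower, Pycr1 and Nupr1, and 7 did not pass. Of the 13 ATF4 genes that were lower, 9 had a promoter entry without the word and 2 had no entry. In SL the same list was mostly higher in clone 1, 22 genes against 1 lower, beside 8.83% of all genes higher and 7.77% lower there. Of the 35 genes, 16 differed between media, 1 upward and 15 downward in SL2i, beside 17.0% of all genes. For Phgdh the change was 0.11 in SL and the difference between media -0.82 (adjusted p = 6.24e-19, edgeR).

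Lipid synthesis genes were lower. Of 25 cholesterol genes 4 were higher and 13 lower, median -0.23, and of 16 fatty acid genes 8 were lower and none was higher, median -0.15. The sterol desaturase gene Sc5d fell by 0.55 ± 0.091 and the sterol sensor gene Insig1 by 0.42 ± 0.056. Srebf2, which drives these genes, rose slightly, from 276 and 291 to 309 and 325 CPM (0.16 ± 0.039). The desaturase gene Scd1 fell from 318 and 342 to 201 and 224 CPM (-0.63 ± 0.043; 8.42% shared words), and Acss2, which makes acetyl-CoA from acetate, from 23.97 and 20.8 to 11.4 and 11.02 (-0.9996 ± 0.14; 7.69% shared words). In SL 8 of the 25 cholesterol genes and 4 of the 16 fatty acid genes were lower, and none of either was higher. Of all genes, 7.77% were lower there and 8.83% higher.

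Central carbon genes went both ways. Of 20 glycolysis genes 5 were higher and 6 lower: the glucose transporter gene Slc2a1 rose from 222 and 223 to 257 and 266 CPM (0.23 ± 0.041), and Pfkp, a phosphofructokinase, fell from 420 and 439 to 319 and 337 (-0.39 ± 0.037; 5.31% shared words). Hexokinase 1 (Hk1) fell by 0.38 ± 0.051. Of 22 genes of the TCA cycle and glutamine entry 5 were higher and 6 lower, and Suclg2, a succinyl-CoA ligase subunit, rose most among them (0.88 ± 0.075; 21.01% shared words). Of 20 genes of NADH shuttles and NAD synthesis 2 were higher and 6 lower, and 4 were called without clone 1 replicate 1. Nampt, the rate-limiting enzyme of NAD salvage, fell from 215 and 234 to 182 and 184 CPM (-0.29 ± 0.042), and the deacetylase gene Sirt1 rose by 0.36 ± 0.050. Of 33 nuclear genes of the respiratory chain 3 were higher and 14 lower by small amounts, as for the ATP synthase subunit gene Atp5a1 (-0.25 ± 0.034). Without chr8A replicate 1 that list had 9 members called and without clone 1 replicate 2 it had 8.

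**Figure D3:**
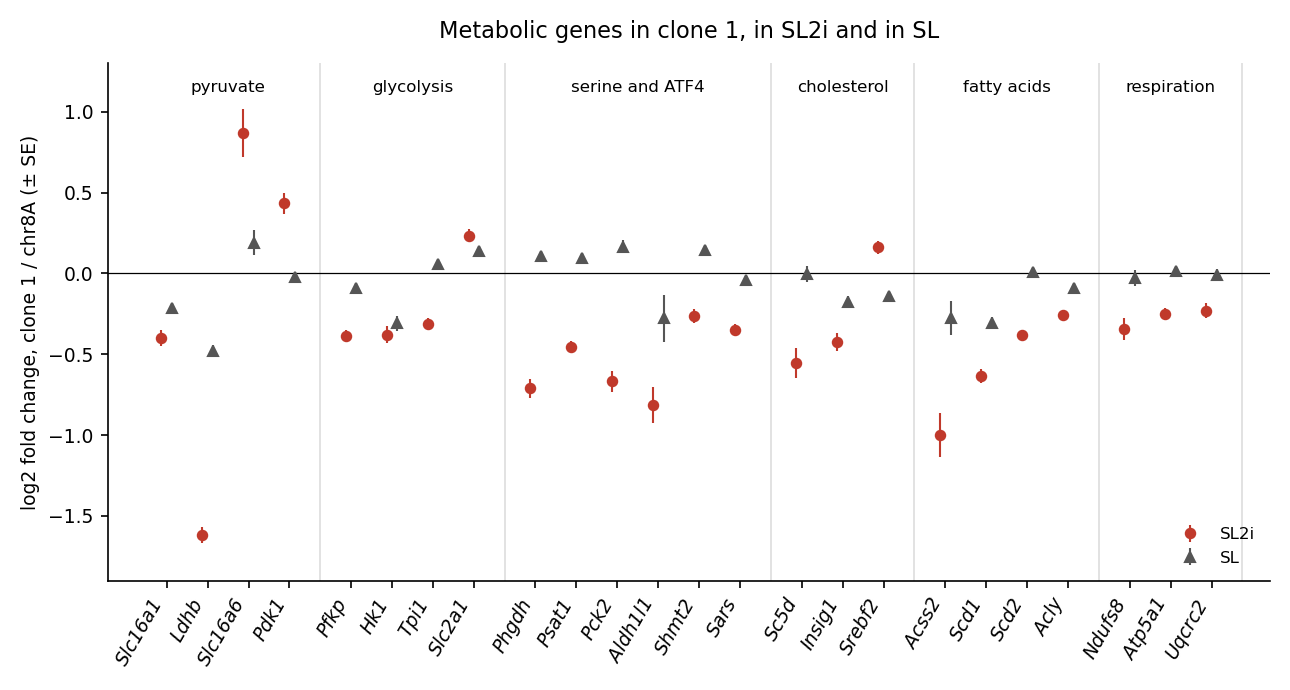
Log2 fold change of clone 1 over chr8A (± SE) for metabolic genes grouped by pathway, circles in SL2i (2 against 2 libraries) and triangles in SL (3 against 3). Phgdh, Psat1, Pck2 and Shmt2 lie below 0 in SL2i and above 0 in SL, and Ldhb lies lowest in SL2i at -1.62.

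Among the remaining lists, 3 of 20 HIF1 targets were higher and 8 lower, a list whose calls fell from 11 to 6 without chr8A replicate 2 and to 7 without either clone 1 replicate. The prolyl hydroxylase gene P4ha1 fell from 37.3 and 37.7 to 25.4 and 26.1 CPM (-0.54 ± 0.092). NRF2 and glutathione genes were 5 of 18 higher and 5 lower, with 6 called without chr8A replicate 1. Nqo1, a quinone reductase, rose from 87.6 and 94.9 to 120 and 119 CPM (0.39 ± 0.061), and the glutathione transferase gene Gstm1 fell from 117 and 110 to 77.2 and 73.2 (-0.59 ± 0.063; 29.4% shared words). Of 20 p53 targets 6 were higher and 2 lower. The desmosomal gene Perp rose from 7.05 and 8.29 to 16.9 and 15.02 CPM (1.05 ± 0.14), Pmaip1, which promotes cell death, rose by 0.90 ± 0.052, and the cell cycle inhibitor gene Cdkn1a did not pass. Of 21 matrix and adhesion genes 5 were higher and 6 lower, with the basement membrane linker gene Nid1 falling from 625 and 664 to 419 and 432 CPM (-0.60 ± 0.036) and E-cadherin (Cdh1) from 562 and 592 to 432 and 419 (-0.44 ± 0.036).

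Of 18 polycomb genes 6 were higher and 4 lower, led by Jarid2, which rose from 325 and 320 to 454 and 456 CPM (0.50 ± 0.037), and 6 were called without chr8A replicate 1 or without clone 1 replicate 2. Interferon response genes were 1 of 18 higher and 4 lower, a share of 27.8% called beside 22.4% of all genes. That count was smaller without chr8A replicate 2 or without clone 1 replicate 1. Ddx58, the RNA sensor RIG-I and the 1 member called higher, rose from 49.7 and 56.8 to 102 and 99.4 CPM (0.92 ± 0.068). Lysosome genes were 4 of 20 higher and 7 lower, and genes of pH regulation 3 of 14 higher and 2 lower. The counts of 7 further lists moved by more than 1.5 times with 1 library left out. Amino acid transporters were 4 of 20 each way, with 5 called without chr8A replicate 1 and 4 without clone 1 replicate 1. Unfolded protein and heat shock genes were 2 of 17 higher and 4 lower, with 2 called without chr8A replicate 1. SRF targets were 4 of 15 higher and 1 lower, with 2 called without clone 1 replicate 1. Genes of X inactivation and the Y chromosome were 2 of 10 each way, with 2 called without clone 1 replicate 1. MondoA genes were 3 of 7 higher, with 1 called without chr8A replicate 1 or clone 1 replicate 1. Of 10 two-cell-like genes 1 was lower, and none was called without chr8A replicate 1 or clone 1 replicate 2. Of 9 Hox genes 1 was lower, and none was called without any 1 of the 4 libraries.

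**Figure D4:**
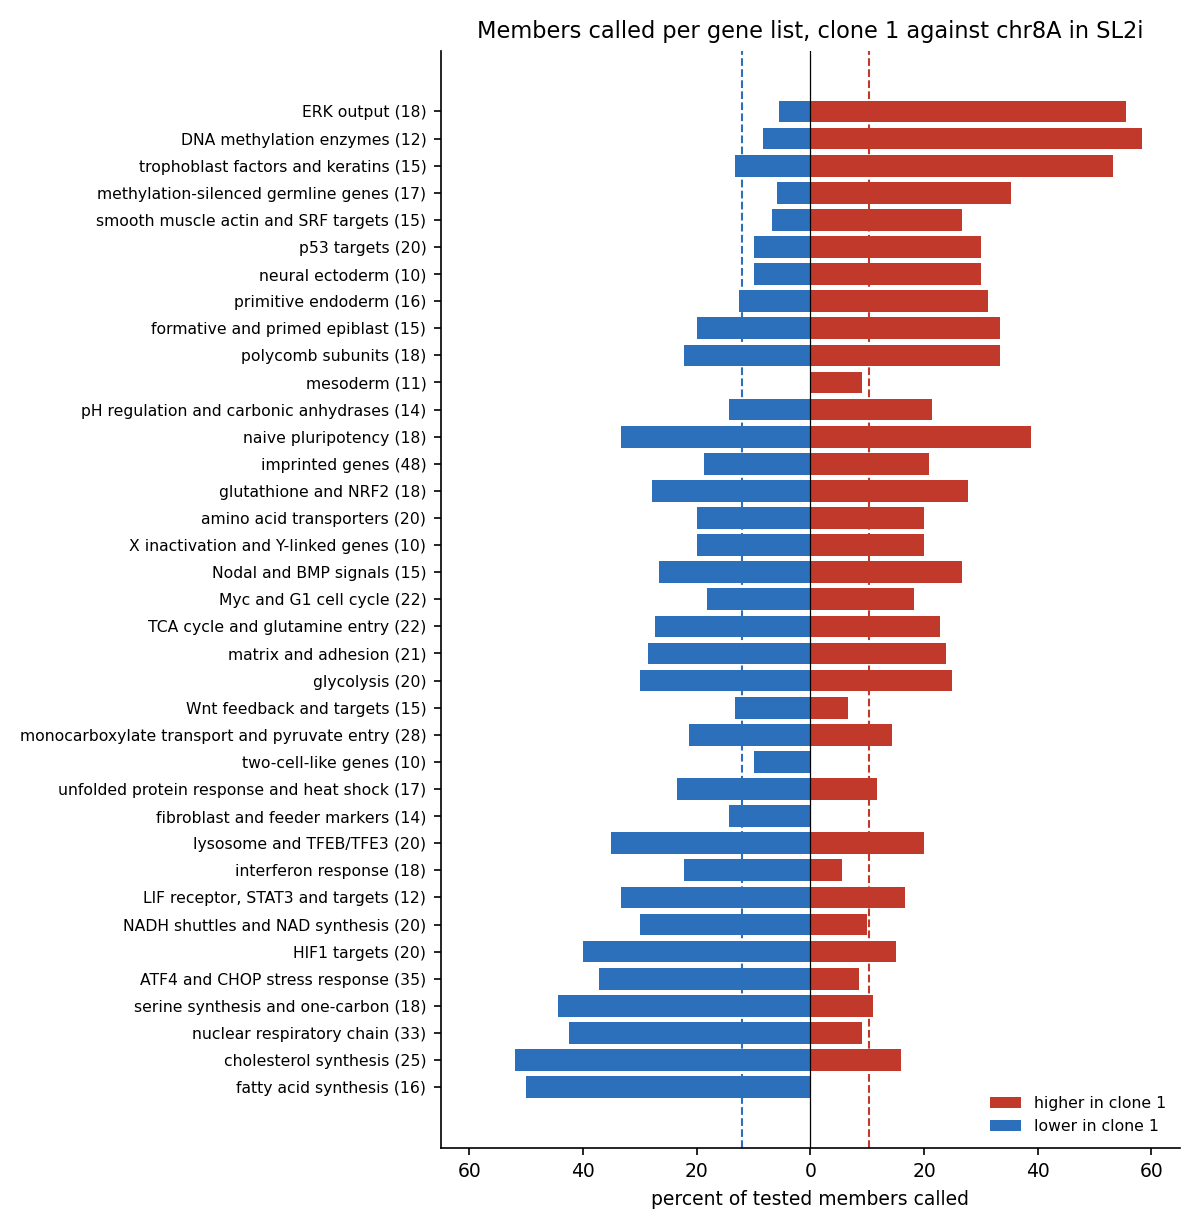
Percent of tested members called higher (right, red) and lower (left, blue) in clone 1 for each list with at least 10 tested members, whose number stands in parentheses. Dashed lines mark the shares over all genes, 10.4% higher and 12.1% lower. These shares include genes with few reads, at which only large changes could pass, so a bar past a line was not tested as an excess. ERK output, DNA methylation enzymes and keratins extend farthest to the right, and cholesterol and fatty acid synthesis farthest to the left.

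In SL, clone 1 differed from chr8A at 2850 genes (16.6%), and changes of 2-fold or more numbered 34 rises and 59 falls, with 3 libraries a side and greater depth. The difference between media passed for 2925 genes (17.0%), 1337 of them more positive in SL2i (7.78%) and 1588 more negative (9.24%). Its largest values belonged to Igf2 (4.16 ± 0.18), Nkx1-2, Dmgdh, Spry4 (2.96 ± 0.13) and Rhox5 (2.75 ± 0.12). Igf2 stood at 228 ± 13.8 CPM in chr8A and 179 ± 10.2 in clone 1 in SL (SD, n = 3 each), so that it was lower in clone 1 in SL and higher in SL2i. Rhox5 stood at 17.7 ± 1.76 and 22.2 ± 1.79 CPM in SL, near its chr8A level in SL2i.

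Rasgrp1 fell from 20.97 and 20.2 to 3.70 and 2.73 CPM in SL2i (-2.69 ± 0.21), whereas in SL it stood at 4.28 ± 0.425 and 3.82 ± 0.636 (SD, n = 3 each), a difference between media of -2.51 ± 0.27 (adjusted p = 9.09e-13, edgeR). The zinc importer gene Slc39a14 rose from 5.03 and 5.23 to 23.2 and 27.7 CPM in SL2i and stood at 184.6 ± 4.21 and 183 ± 5.06 in SL. The dimethylglycine dehydrogenase gene Dmgdh, which acts in choline breakdown, fell from 46.3 and 43.0 to 18.5 and 18.2 CPM in SL2i but had only 0.144 ± 0.110 and 0.524 ± 0.0549 in SL, so its difference of -3.08 ± 0.49 (5.82% shared words) is set against SL levels under 1 CPM. The homeobox gene Nkx1-2 (-3.21 ± 0.93; 16.0% shared words) was likewise near 0 in SL, and its difference ended without clone 1 SL replicate 2 (adjusted p = 0.0562, edgeR) or replicate 3 (0.0532). Its fall in SL2i, -0.81 ± 0.23, ended without chr8A replicate 1 (adjusted p = 0.103) or clone 1 replicate 1 (0.0864).

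Other genes among those that changed most were Enox1, a cell surface oxidase (1.86 ± 0.14), and the antisense RNA gene Rbfaos (1.90 ± 0.17), which cannot be told from its sense partner if strand was not used in counting. Falls of this size were those of Cspg4b (-1.99 ± 0.093), the axon guidance gene Rgma (-1.84 ± 0.20), the ribosomal protein paralog gene Rpl10l (-1.66 ± 0.093; 24.6% shared words), Armcx2 (-1.59 ± 0.16), the adaptor subunit gene Ap3b2 (-1.58 ± 0.18; 5.24% shared words) and the POU factor gene Pou2f3 (-1.57 ± 0.20). These genes were picked for libraries that do not overlap between the lines.

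**Figure D5:**
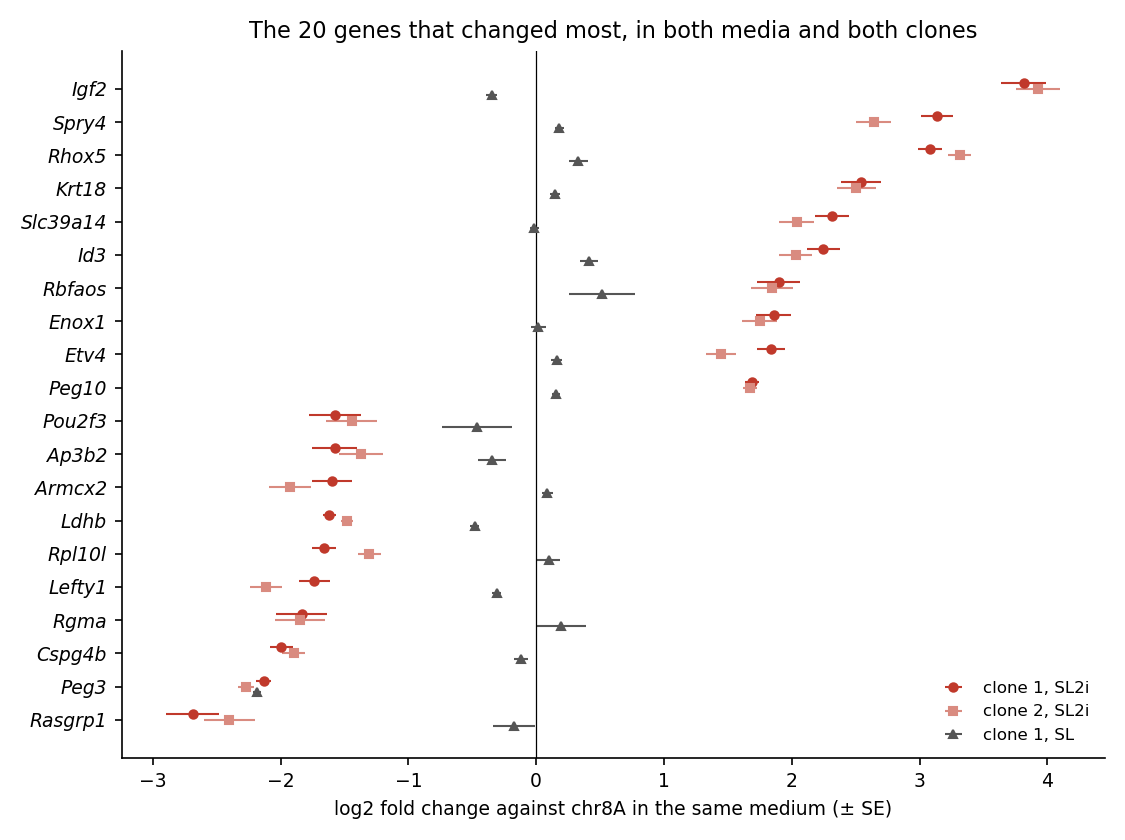
Log2 fold change against chr8A in the same medium (± SE) for clone 1's 10 largest rises and 10 largest falls in SL2i. Circles are clone 1 in SL2i, squares clone 2 in SL2i and triangles clone 1 in SL, and the clones share the chr8A libraries. Among triangles Peg3 lies lowest, at -2.18, as low as its circle, and Rasgrp1 lies at -0.17 against -2.69 for its circle.

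Clone 2 in SL2i was set directly against clone 1, a test that needs no chr8A library. Only 27 of 17178 genes passed in edgeR, 0.157%, of which 15 were higher in clone 2 (0.0873%) and 12 lower (0.0699%). Slc16a1 was lower in clone 2, at 78.7 and 78.6 CPM against 122 and 123 in clone 1 (adjusted p = 6.31e-17, edgeR). Spry4 stood at 24.2 and 28.2 CPM in clone 2, under its clone 1 level and above chr8A, a difference of -0.50 between the clones (adjusted p = 9.61e-05, edgeR) that ended without clone 1 replicate 2 (0.0977). The largest differences were those of Samd9l, an antiviral factor gene (4.65 and 4.49 CPM in clone 1, 24.2 and 23.1 in clone 2), the imprinted zinc finger gene Plagl1 (209 and 215 in clone 1, 41.2 and 43.0 in clone 2), Phf14 (5.86% shared words), Ndufa4 and the splicing gene Zrsr1 (8.31% shared words). Plagl1 stood at 391 and 390 CPM in chr8A, a change of -0.88 ± 0.046 in clone 1.

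Against the same chr8A libraries, clone 2 had 3531 genes called (20.6%), 9.74% higher and 10.8% lower. Because both clones are compared with these 2 libraries, their values are given side by side and not as separate support. Rhox5 changed by 3.08 in clone 1 and 3.31 in clone 2, Id3 by 2.25 and 2.03, Krt18 by 2.54 and 2.51, Peg3 by -2.13 and -2.27, and Ldhb by -1.62 and -1.48. ERK output genes were 10 higher and 1 lower in clone 1 and 11 higher and none lower in clone 2, and ATF4 genes 3 higher and 13 lower in clone 1 and 3 higher and 12 lower in clone 2. Cholesterol genes were 4 higher and 13 lower in clone 1, and 3 higher and 12 lower in clone 2. Respiratory chain genes were 3 higher and 14 lower, and 3 higher and 8 lower.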

How the data were processed

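Per the submitters' processing notes, the authors used DRAGEN 3.10, featureCounts of Subread and the mouse build GRCm39. The sources used here give no strand setting. Libraries came from a stranded poly(A) kit, per the labels. The deposited table holds raw counts per gene for 15 libraries and a gene length, another value per the file headers, which was used for nothing tested. The other table of the series, of vector and LbNOX libraries, was not used here.

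For the tests, edgeR 4.0.16 was run in R 4.3.3 (filterByExpr, TMM, robust quasi-likelihood F test, 1 mean per group, all 15 libraries sharing 1 estimate of spread) and adjusted by Benjamini-Hochberg over 17178 genes, with 0.05 as threshold. Standard errors are the change divided by the square root of F. CPM values are TMM-normalized. Nothing says that replicates came from separate cultures, so the p-values reflect library-to-library spread alone, part or all of which may be technical. Total counts limit precision at low genes. Shared words are those stretches of 30 bases of a gene that GENCODE M21 also has in another gene on either strand, as a percent. At 5% or more the percent stands beside the gene's change, since reads may belong to the other gene. Aurkc and Pdk3 are given without their percent.

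Named genes were Slc16a1, the 10 that rose and 10 that fell most (mean of at least 3 log2 CPM, libraries not overlapping, a proper symbol), per list the first 2 members and up to 4 called with the smallest adjusted p, and the 5 largest values of each further contrast. Other members named with their values were chosen after those were seen. Members and lists were chosen with earlier results of these data known. Of the gene identifiers, 96.5% matched RefSeq of GRCm38.p6, an older build used for chromosomes and promoter sequences only, and 13030 tested genes had a promoter entry.

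Alternatives were RLE factors, other filters, DESeq2 1.42.0, a replicate block, fewer libraries in the fit, thinning to equal depth and leaving out each library in turn. Same-numbered SL2i libraries did not deviate together (correlations 0.01, -0.03 and -0.03 over genes), so the numbers were not taken to pair samples.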

Additional observations from a re-analysis of the deposited data

Results flagged for a closer look

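The effect of clone 1 differed between SL2i and SL for 2925 genes by a test of the difference itself (edgeR, adjusted over all genes), and for 22 of the genes named by rule. More positive in SL2i, on the log2 scale, were Igf2 by 4.16, Spry4 by 2.96, Rhox5 by 2.75, Krt18 by 2.40, Slc39a14 by 2.33, Enox1 by 1.84, Id3 by 1.84, Etv4 by 1.68, Peg10 by 1.54 and Rbfaos by 1.39. More negative were Nkx1-2 (-3.21), Dmgdh (-3.08), Rasgrp1 (-2.51), Rgma (-2.03), Cspg4b (-1.88), Rpl10l (-1.76), Armcx2 (-1.68), Lefty1 (-1.43), Ap3b2 (-1.23), Ldhb (-1.14), Pou2f3 (-1.11) and Slc16a1 (-0.18; a call that ended when any 1 of 5 libraries was left out, with DESeq2 and at equal depth). Depth was lower in SL2i than in SL. With all libraries thinned to equal depth the count was 1779. Groups of 2 or 3 libraries allowed no check for single outlying values.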

How the results depend on the processing

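No named gene that was called and followed changed direction under any alternative. The directions of Aurkc, Pdk3 and uncalled genes were not followed. The 3853 genes called between clone 1 and chr8A became 2711 to 4019 under the other planned fits, 2572 to 3055 with 1 SL2i library left out, 1109 with a fold of at least 1.5 added, and 2555 among genes under 5% of shared words, an alternative chosen after the data were seen. Slc16a1 stayed called, between -0.35 and -0.44. The count for the difference between media, 2925, was 1779 at equal depth and 2010 to 2822 with 1 library left out. The small count between the clones, 27, moved most: 43 with DESeq2, whose filter left 15653 genes without an adjusted p, 17 with DESeq2 without that filter (chosen after the data were seen), 11 with only the 6 SL2i libraries or only the groups compared, 13 at equal depth, and 16 to 40 with 1 library left out, the lowest without clone 1 replicate 2. With a replicate block the counts were 4019, 3193 and 72, but the numbers do not pair the samples. Of the 468 counts of list members under these settings 415 stayed within 1.5 times and 53 moved, among them those of HIF1 targets and Hox genes. Of 164 named genes called, 136 kept the call under all 12 settings; the cause of the other 28 losses was not tested. Depth limits genes with few reads: at low levels only large changes could pass.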

Other observations

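Several gene groups that belong to no list above were looked at after their values were seen, so their counts are descriptions. Over all genes tested, 10.4% were called higher and 12.1% lower. Of 22 selenoprotein genes tested, 7 were higher and 4 lower in clone 1 in SL2i. The peroxidase gene Gpx1 stood at 232 and 217 CPM in chr8A and 535 and 534 in clone 1 (1.25 ± 0.069), Selenow at 29.3 and 25.1 and at 69.7 and 69.8 (1.36 ± 0.079), and Selenoh at 84.1 and 76.3 and at 164 and 175 (1.08 ± 0.063). Gpx2 (-1.35 ± 0.13; 9.86% shared words), the lipid peroxide reductase gene Gpx4 (-0.51 ± 0.055; 39.2% shared words) and Dio3 (-1.09) were lower. The endocytic receptor gene Lrp2 went from 17.5 and 18.2 to 40.5 and 47.0 CPM (1.299 ± 0.078), whereas the other 7 genes of selenium uptake and selenocysteine insertion did not pass. Adjusted p from edgeR was 4.36e-09 for Gpx1 and 1.63e-27 for Lrp2.

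Of 12 neurofilament and neuronal cytoskeleton genes 5 were higher and 2 lower. The neurofilament genes Nefl, Nefm and Nefh rose by 1.20 (32.2% shared words), 1.07 (19.1% shared words) and 1.39, with Map1a at 1.13, while Map1b and Vim changed by -0.76 and -0.57. Of 10 glypicans and syndecans, which carry heparan sulfate, 3 were higher and 3 lower. Gpc4 went from 45.5 and 49.96 to 122 and 129 CPM (1.40 ± 0.068) and Gpc3 from 45.9 and 41.6 to 21.6 and 20.4 (-1.06 ± 0.093). Of 13 genes of betaine and choline use 2 were higher and 4 lower. Bhmt (30.5% shared words) and Bhmt2 (11.8%), which pass a methyl group to homocysteine, fell by 1.25 and 1.43 beside Dmgdh. Bhmt, Bhmt2 and Dmgdh are consecutive tested genes on their chromosome, so their falls may not be separate observations, which was not tested.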
